A study of Arabidopsis thaliana with 8 samples.

Results

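AT1G52820, AT1G80320 and AT5G43450 are 3 *Arabidopsis* genes that the study lists under oxidation-reduction among genes with opposite MeJA responses in *hy5-1* and *Ler* seedlings under far-red (FR) light, and that are treated here as dioxygenase-like. Each of the 3 was paired with 1 probe set of its own by the array annotation, so 3 of the 22746 analysed probe sets, and 3 of 13286 named genes, are described. They were chosen on the 2 MeJA ratios under FR light, so all values and ratios of the 4 FR arrays are given as a description. The study listed them on the FR arrays and not on the 4 dark arrays, but these 3 were singled out from its list with earlier results of all 8 arrays known. The reference tables used here give these genes locus identifiers and no function, so the dioxygenase label was not checked on an annotation.

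Whole seedlings 4 days old came from continuous FR light (fluence rate 1.5 μmol m-2 s-1) or from darkness. The seedlings were *hy5-1*, a mutant of the bZIP transcription factor gene *HY5* in the *Landsberg erecta* background, or wild-type *Ler*, on germination medium with 50 μM or 0 μM methyl jasmonate (MeJA). Each of these 8 combinations was represented by 1 Affymetrix ATH1 array, so no ratio between 2 arrays has a replicate check. Because whole seedlings were used, fewer expressing cells and less RNA per cell cannot be told apart. No probe set is paired with *HY5* in the annotation used here, and the mutant label was thus not examined on the mutated gene.

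Dioxygenases that depend on 2-oxoglutarate and Fe(II) form a large plant enzyme family. They couple the oxidation of a small molecule to the decarboxylation of 2-oxoglutarate. In plants they act in the synthesis or inactivation of gibberellin, auxin, jasmonate, flavonoids, coumarins and glucosinolates. Jasmonates act through degradation of JAZ repressors, which releases MYC transcription factors, whereas HY5 promotes light-dependent seedling development.

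The deposited values are logarithms, read here as base 2 because no source used here states the base, and were shifted, probe set by probe set, to a median of 0 among the 4 FR arrays and again among the 4 dark arrays. A value is thus a distance from the middle of its own light, not a transcript level, and the middle pair of values of a gene are mirror images around 0. Ratios within a light are unaffected by this centring, whereas levels in FR light and darkness could not be compared. A gene is called up-regulated from a 2-fold ratio (log2 ratio of 1) upward, and down-regulated from a 0.5-fold ratio (log2 ratio of -1) downward.

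AT1G52820 had the largest MeJA response of the 3 genes in FR-grown *Ler*, and a decrease in FR-grown *hy5-1*. Its FR values were -0.85 with MeJA and 0.85 without it in *hy5-1* seedlings, and 1.72 with MeJA and -2.87 without it in *Ler* seedlings. The untreated *Ler* array was the lowest by a wide margin. The log2 MeJA ratio was -1.70 in *hy5-1* (0.309-fold) and 4.59 in *Ler* (24.1-fold). Only the *Ler* ratio contains the low untreated *Ler* array.

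In darkness AT1G52820 was down-regulated by MeJA in both genotypes. Its dark values were -1.47 with MeJA and 0.47 without it in *hy5-1*, and -0.47 with MeJA and 0.73 without it in *Ler*. Both treated arrays lay below both untreated arrays. The MeJA ratios were -1.93 in *hy5-1* and -1.20 in *Ler*, so the response of *Ler* had opposite signs in FR light and darkness. Of all probe sets, 5.62% fell in both genotypes in darkness at 2-fold.

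AT1G80320 had MeJA ratios of similar size and opposite sign in the genotypes under FR light. The values were -1.41 with MeJA and 1.42 without it in *hy5-1*, and 1.41 with MeJA and -1.73 without it in *Ler*. Treated *hy5-1* and untreated *Ler* formed a low pair, and untreated *hy5-1* and treated *Ler* a high pair. The MeJA ratios were -2.83 in *hy5-1* (0.140-fold) and 3.14 in *Ler* (8.82-fold).

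In darkness AT1G80320 was up-regulated by MeJA in both genotypes. Its values were 0.30 with MeJA and -1.65 without it in *hy5-1*, and 2.88 with MeJA and -0.30 without it in *Ler*. Within each genotype the treated array was the higher, and within each treatment *Ler* was the higher. The MeJA ratio of *Ler* was 3.18, close to its FR ratio, whereas that of *hy5-1* was 1.94 and opposite in sign to its FR ratio. Of all probe sets, 4.95% rose in both genotypes in darkness at 2-fold.

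AT5G43450 was the only 1 of the 3 genes that kept the opposite responses in darkness. Under FR light its values were -0.85 with MeJA and 0.28 without it in *hy5-1*, and 0.94 with MeJA and -0.28 without it in *Ler*. The MeJA ratios of -1.12 in *hy5-1* and 1.21 in *Ler* were the smallest of the 3 genes and lay just past the 2-fold limits. Among other genes of a dioxygenase list described below, AT3G46500 came nearest to both limits without passing them together, with a ratio of -1.77 in *hy5-1*, past the limit, and 0.62 in *Ler*, short of it.

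The dark values of AT5G43450 were -0.59 with MeJA and 1.78 without it in *hy5-1*, and 0.59 with MeJA and -0.97 without it in *Ler*. The genotypes changed order with treatment, *hy5-1* being the higher without MeJA and the lower with it. The MeJA ratio was -2.37 in *hy5-1* (0.194-fold) and 1.55 in *Ler* (2.93-fold), both larger in size than under FR light. At a 3-fold threshold the *Ler* ratio was no longer called.

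**Figure D1:**
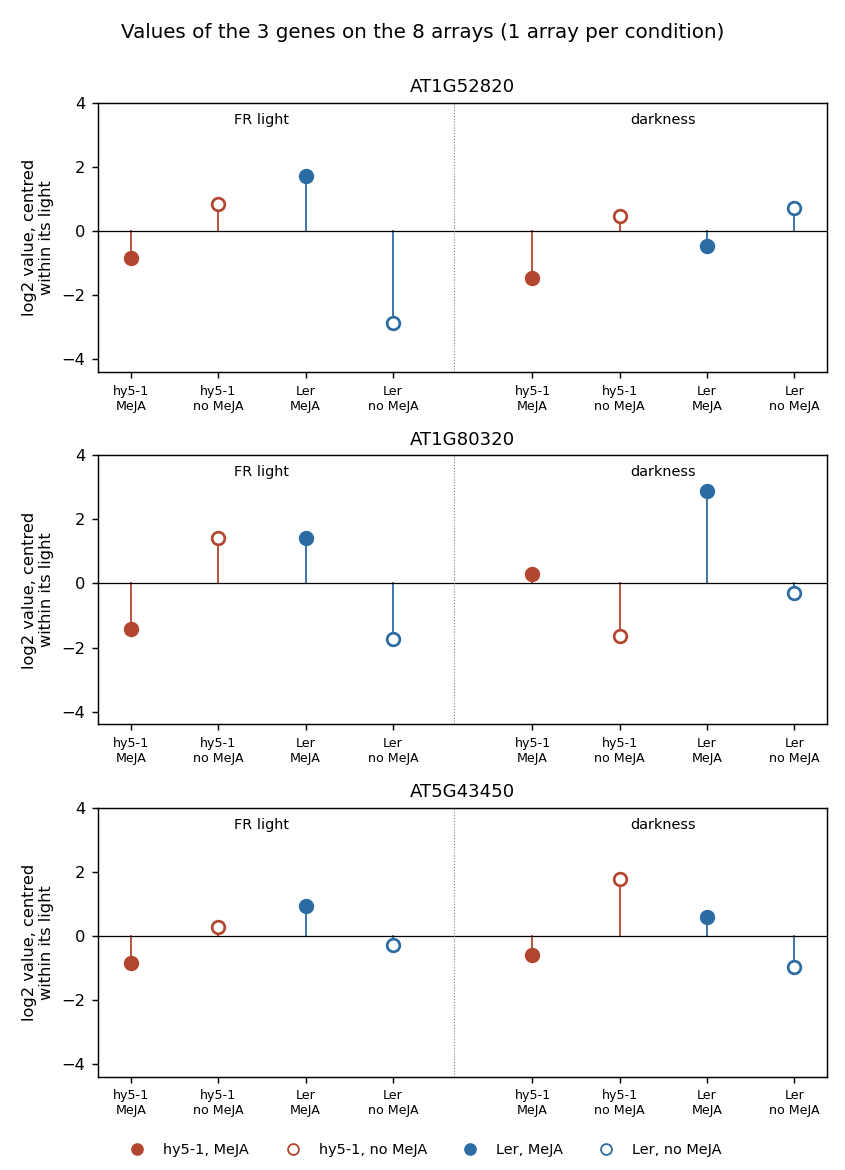
Values of the 3 genes on each of the 8 arrays, 1 point per array, as log2 values centred within FR light or darkness (vertical axis), with *hy5-1* in red, *Ler* in blue, filled points for MeJA and open points for no MeJA. AT1G80320 has its low and high pairs crossed between genotypes under FR light, whereas both treated points lie above the untreated point of their genotype in darkness.

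In darkness, on arrays that the study's list did not use, 1 of the 3 genes was down-regulated in *hy5-1* while up-regulated in *Ler*, a pattern that 1.78% of all probe sets showed. In dark *hy5-1* seedlings 1 gene was up-regulated (12.2% of probe sets) and 2 were down-regulated (16.1%). In dark *Ler* seedlings 2 genes were up-regulated (11.2%) and 1 was down-regulated (13.1%). All 6 dark MeJA ratios of the 3 genes passed 2-fold, in differing directions, but the genes were singled out with earlier dark results known. Of all probe sets, 4.95% were up-regulated in both genotypes in darkness and 5.62% down-regulated in both. A further 1.78% were down in *hy5-1* and up in *Ler*, and 1.76% the reverse. Under FR light the opposite pattern was shown by 2.07% of probe sets, and by all 3 genes, as the choice requires.

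The difference between the MeJA responses, *hy5-1* minus *Ler*, was -6.29 for AT1G52820, -5.97 for AT1G80320 and -2.34 for AT5G43450 under FR light. In darkness it was -0.73, -1.23 and -3.92 for the same genes. The order of the genes was thus reversed between the lights. A dark difference as low as that of AT5G43450 was found for 1.51% of probe sets, as low as that of AT1G80320 for 10.9%, and as low as that of AT1G52820 for 18.7%. Since each difference rests on 4 single arrays, it was not tested.

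**Figure D2:**
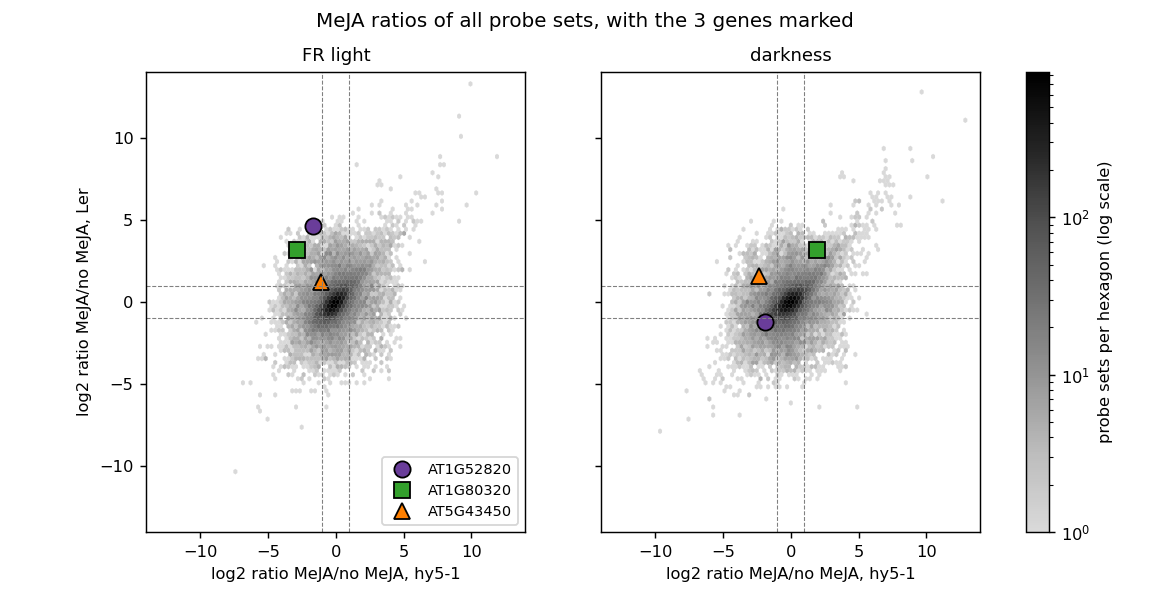
Log2 MeJA ratio in *hy5-1* (horizontal axis) against that in *Ler* (vertical axis) for all 22746 probe sets as shaded hexagons, under FR light and in darkness, with dashed lines at 2-fold. The 3 genes share the upper left corner under FR light, and AT5G43450 alone is found there in darkness.

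The other probe sets with the FR pattern show how often it recurred in darkness. Under FR light 471 probe sets went down in *hy5-1* and up in *Ler*, and 22 of these (4.67%) had the same pattern in darkness, AT5G43450 being 1 of them. These 22 make up 0.0967% of all probe sets. Of the remaining 22275 probe sets, 1.72% had that dark pattern. The reversed pattern, up in *hy5-1* and down in *Ler*, was more frequent among the 471, with 34 probe sets (7.22%, against 1.64% of the remaining ones and 1.76% of all probe sets). A further 31 were up-regulated in both genotypes in darkness, as AT1G80320 was (6.58%, against 4.91%), and 44 were down-regulated in both, as AT1G52820 was (9.34%, against 5.54%). The other 340 stayed under 2-fold in 1 or both genotypes.

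Comparing the genotypes directly, all 3 genes were lower in *hy5-1* than in *Ler* with MeJA, in both lights. Under FR light with MeJA the log2 ratio of *hy5-1* to *Ler* was -2.57 for AT1G52820, -2.82 for AT1G80320 and -1.78 for AT5G43450. These FR ratios use the arrays on which the genes were chosen, and 9.09% of probe sets were lower there by 2-fold. In darkness with MeJA the ratios were -1.002, -2.58 and -1.17 for the same genes, where 8.06% of probe sets were lower. AT1G52820 lay right at the dark limit, with a ratio of 0.499-fold.

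Without MeJA the genotype ratios of the 3 genes had differing directions in darkness. Under FR light, where the ratios share the arrays of the choice, the log2 ratio of untreated *hy5-1* to untreated *Ler* was 3.72 for AT1G52820 (13.2-fold), 3.15 for AT1G80320 (8.88-fold) and 0.55 for AT5G43450. For the first pair of genes this ratio and the *Ler* MeJA ratio share the untreated FR *Ler* array, the lowest of the 4. A ratio of at least 2-fold in this direction was found for 9.19% of probe sets. In untreated dark seedlings the ratio was -0.27 for AT1G52820, -1.35 for AT1G80320 and 2.75 for AT5G43450 (6.71-fold). AT5G43450 was up-regulated there (9.64% of probe sets), AT1G80320 down-regulated (7.68%), and AT1G52820 under 2-fold.

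**Figure D3:**
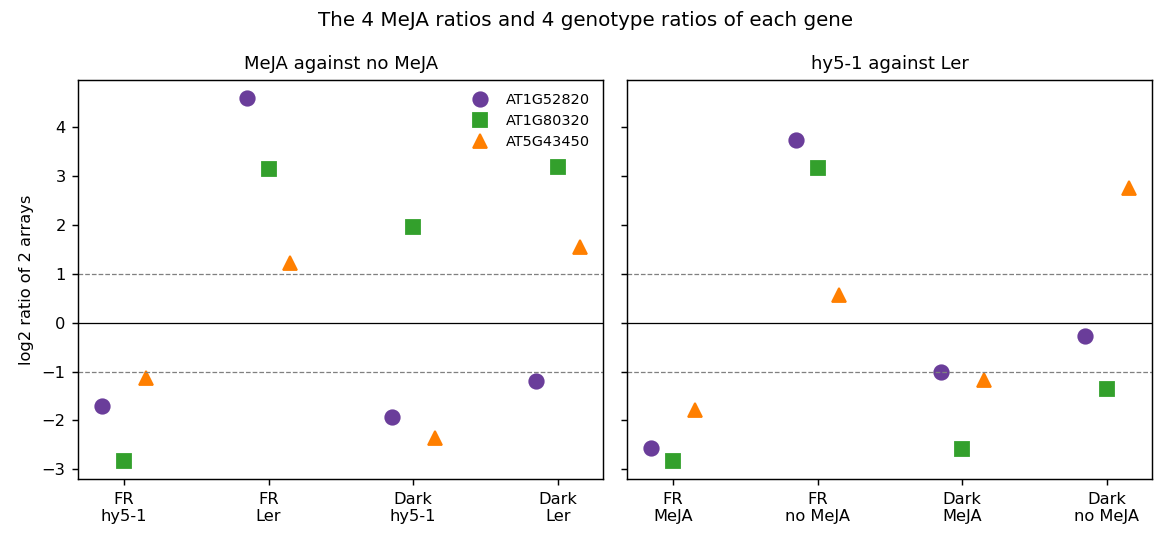
Log2 ratios of the 3 genes for MeJA against no MeJA (left) and *hy5-1* against *Ler* (right), 1 point per ratio of 2 arrays, with dashed lines at 2-fold. With MeJA all points of the genotype panel lie below 0 in both lights, whereas without MeJA they spread from -1.35 to 3.72.

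A linear model in limma was fitted to the 4 dark arrays over all probe sets, with genotype and MeJA as additive terms. Its error combines 1 residual degree of freedom, the difference between the 2 genotype pairs, with variance that limma borrows from all probe sets (prior degrees of freedom 1.70). AT1G80320 averaged 1.59 with MeJA and -0.97 without it, a difference of 2.56 (standard error 0.44, limma adjusted p = 0.264, higher in 2 of 2 pairs). AT1G52820 averaged -0.97 with MeJA and 0.60 without it, a difference of -1.57 (standard error 0.32, limma adjusted p = 0.292, lower in 2 of 2 pairs). Neither passed the threshold of 0.05. For AT5G43450, whose dark pairs had opposite signs, the mean difference was -0.41 with a standard error of 1.22 (limma adjusted p = 0.885).

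For genotype the same dark limma fit gave means of -0.68 in *hy5-1* and 1.29 in *Ler* for AT1G80320, a difference of -1.97 (standard error 0.44, adjusted p = 0.875, lower in 2 of 2 pairs). The difference was -0.63 for AT1G52820 (standard error 0.32) and 0.79 for AT5G43450 (standard error 1.22), each with an adjusted p of 1. The dark fit called 0 of 22746 probe sets (0%) for MeJA, with 3284 (14.4%) at an unadjusted p under 0.05, and likewise 0 (0%) for genotype, with 1149 (5.05%). With a trend of the variance it called 1063 probe sets for MeJA and 35 for genotype, none of the 3 genes among them.

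To place the 3 genes in their family, 95 loci of 2-oxoglutarate-dependent dioxygenases or related enzymes were listed by hand from general knowledge. There was no annotation to check their membership. The list was made with earlier results of these data known, so its shares describe the listed genes and not the whole family. The annotation used here paired 53 of the 95 loci with a probe set of their own. Leaving out the 3 genes, 50 remained. Among these 50 genes an increase with MeJA in both genotypes was more frequent than opposite responses. Under FR light 14 genes (28%) were up-regulated in both genotypes, against 5.26% of all probe sets, and 15 (30%) were so in darkness, against 4.95%. The opposite pattern of the 3 genes was found in 1 other gene under FR light, AT1G52800, which the study also lists (2%, against 2.07% of all probe sets). In darkness 2 other genes had it (4%, against 1.78% of all probe sets). They were AT1G17010, with ratios of -2.92 in *hy5-1* and 1.49 in *Ler*, and AT3G46480, with -2.14 and 1.51 in the same order. Under FR light AT3G46480 had ratios of -2.51 in *hy5-1* and -1.34 in *Ler*.

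The median log2 MeJA ratio of the 50 genes was 0.38 in *hy5-1* and 0.42 in *Ler* under FR light, and 0.29 in *hy5-1* and 0.51 in *Ler* in darkness. The medians over all probe sets lay between -0.09 and -0.06 in these ratios. In FR-grown *hy5-1* 16 of the 50 were up-regulated and 9 down-regulated (11.2% and 13.4% of all probe sets), and in FR-grown *Ler* 17 and 2 (12.8% and 11.2%). In dark *hy5-1* the counts were 17 up and 7 down (12.2% and 16.1% of all probe sets), and in dark *Ler* 19 up and 6 down (11.2% and 13.1%).

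*JRG21*, a gene named for its regulation by jasmonate, led the family. Its MeJA ratios were 8.02 in *hy5-1* and 8.28 in *Ler* under FR light, and 8.98 in *hy5-1* and 8.49 in *Ler* in darkness. AT5G05600 had ratios of 5.57 in *hy5-1* and 5.74 in *Ler* under FR light, and 5.10 and 5.16 in darkness in the same order. In each light both genotypes had similar ratios for these genes. AT3G13610, whose synonym *F6'H1* stands for feruloyl-CoA 6'-hydroxylase of coumarin synthesis, had ratios of 2.99 in *hy5-1* and 1.94 in *Ler* under FR light, and 3.37 and 3.06 in darkness. Of the genes of the *AOP* group, some of which modify glucosinolate side chains, *AOP1* and *AOP3* stayed under 2-fold in all 4 MeJA ratios.

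Other strong increases were those of AT3G61400, with 5.21 in *hy5-1* and 4.78 in *Ler* under FR light and 6.96 and 7.11 in darkness, and of AT2G38240, with 6.14 and 6.54 under FR light and 3.80 and 4.15 in darkness in the same order. AT3G46490 had larger ratios in darkness, at 4.73 in *hy5-1* and 5.95 in *Ler*, than under FR light, at 2.20 and 1.60. AT2G25450 was up-regulated in 3 of the 4 ratios, namely 3.26 in *hy5-1* and 3.93 in *Ler* under FR light and 3.75 in dark *Ler*, with 0.52 in dark *hy5-1*. AT1G12010 was among the 5 lowest family genes in each of the 4 ratios, at -2.32 in *hy5-1* and -0.87 in *Ler* under FR light, and -4.04 and -3.21 in darkness. AT1G03400 was lower with MeJA in 4 of 4 pairs, at -2.38 in *hy5-1* and -0.94 in *Ler* under FR light, and -2.09 and -0.73 in darkness. AT2G44800 was at -3.84 in *hy5-1* and -3.72 in *Ler* in darkness, but at 1.99 in FR-grown *hy5-1*, and AT1G04380 was at 0.95 in dark *hy5-1* and -3.81 in dark *Ler*.

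**Figure D4:**
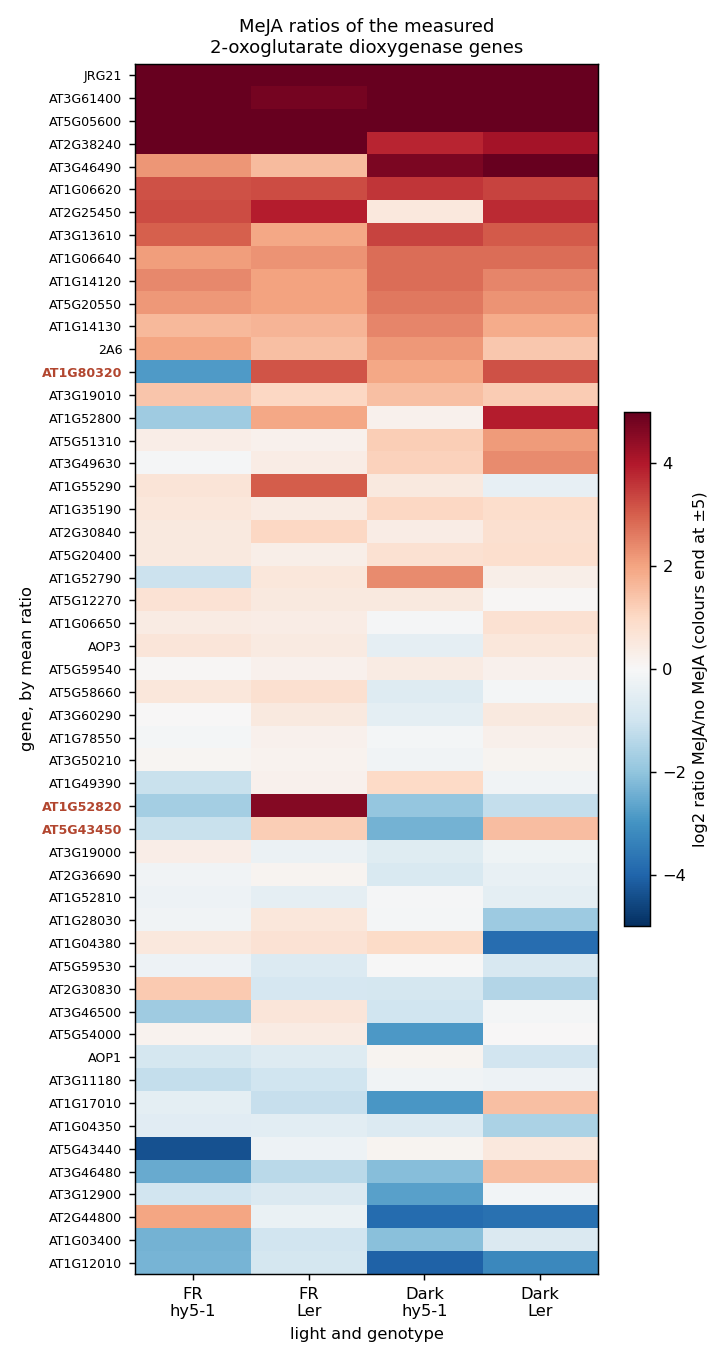
Log2 MeJA ratios of the 53 measured dioxygenase genes (rows, sorted by their mean) in the 4 combinations of light and genotype (columns), red for higher and blue for lower with MeJA, with colours ending at ±5. The 3 genes, in bold red, change colour along their rows, whereas the top rows, such as *JRG21*, are red throughout.

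A limma fit of MeJA over the 4 pairs of arrays, with a block for each genotype and light, was added for these other family genes. Its error combines the spread of the MeJA response over genotypes and lights with variance borrowed from all probe sets. Each condition had 1 array, so its p-values do not measure a spread between replicates. The genes come from the list made with earlier results known, so the count describes the listed genes. It called 12 of the 50 genes, all higher with MeJA in 4 of 4 pairs, where 2.7% of all probe sets were called higher and 1.68% lower. They include *JRG21*, whose log2 ratios averaged 8.44 (standard error 0.21, limma adjusted p = 0.00235), AT5G05600 at 5.39 (standard error 0.18, limma adjusted p = 0.005) and AT3G13610 at 2.84 (standard error 0.28, limma adjusted p = 0.0187). For *2A6* only 1 of its 2 probe sets was called, at 3.09, the other being at 0.41. Without the FR *hy5-1*, the dark *hy5-1* or the dark *Ler* pair this fit called 0 probe sets, with 4063, 4432 and 4257 at an unadjusted p under 0.05. Without the FR *Ler* pair it called 2 of the 50 genes, and 34 of all 22746 probe sets (0.149%).

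AT1G52820 lies in a row of family members, following AT1G52790, AT1G52800 and AT1G52810 in the gene order of the RefSeq table (TAIR10.1), and AT5G43450 directly follows AT5G43440. Each of these neighbours has a probe set of its own. The next genes after AT1G80320, AT1G80330 and AT1G80340, are on the family list as well and were not analysed here. Cross-hybridization between such similar genes was not examined.

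AT1G52800 resembled AT1G52820 under FR light but not in darkness. Its FR values were -0.70 with MeJA and 1.07 without it in *hy5-1*, and 0.70 with MeJA and -1.22 without it in *Ler*. The MeJA ratios were -1.77 in *hy5-1* and 1.92 in *Ler*. In darkness they were 0.21 in *hy5-1* and 3.92 in *Ler*, where AT1G52820 was down-regulated in both. The high dark ratio of *Ler* rests on its untreated array, at -2.93 the lowest of the 4.

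AT1G52810, the gene next to AT1G52820, stayed under 2-fold in all 8 ratios, and its MeJA ratios lay between -0.48 and -0.06. AT1G52790 had MeJA ratios of -1.08 in *hy5-1* and 0.59 in *Ler* under FR light, and of 2.38 in *hy5-1* and 0.31 in *Ler* in darkness. The dark *hy5-1* ratio rests on the treated array, at 2.11, while the other dark arrays lay between -0.27 and 0.15. Thus the 4 adjacent genes did not share a pattern over the 8 arrays.

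AT5G43440, the neighbour of AT5G43450, was down-regulated by MeJA in FR-grown *hy5-1* at -4.36 and had a ratio of -0.26 in FR-grown *Ler*. The *hy5-1* ratio rests on the treated FR *hy5-1* array, at -3.91, while the other 3 FR arrays lay between -0.13 and 0.44. In darkness, where AT5G43450 kept its opposite responses, AT5G43440 had ratios of 0.15 in *hy5-1* and 0.53 in *Ler*.

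**Figure D5:**
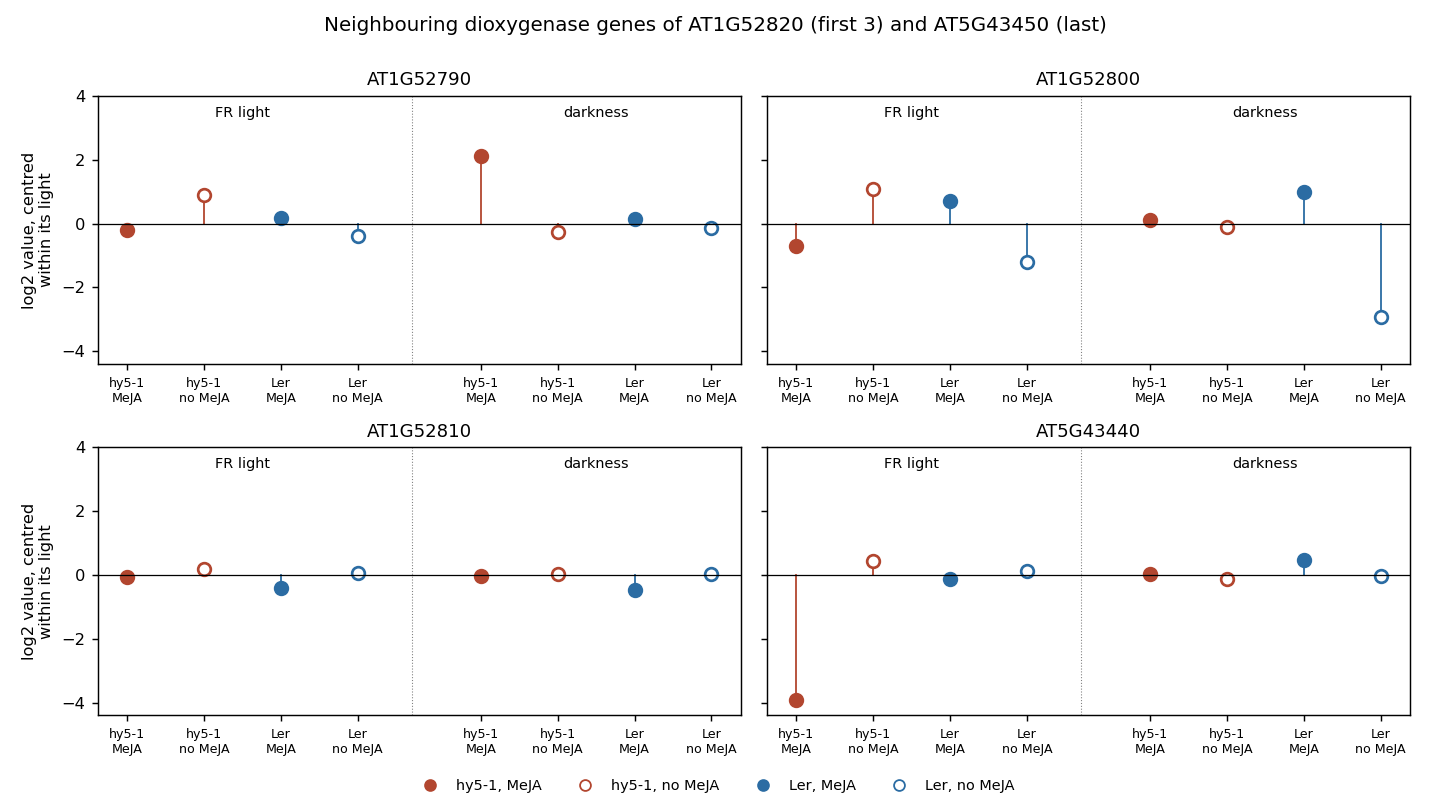
Centred log2 values on the 8 arrays for the neighbouring family genes AT1G52790, AT1G52800, AT1G52810 and AT5G43440, 1 point per array, with *hy5-1* in red, *Ler* in blue, filled points for MeJA and open points for no MeJA. Single arrays stand apart for AT1G52790 (treated dark *hy5-1*, 2.11), AT1G52800 (untreated dark *Ler*, -2.93) and AT5G43440 (treated FR *hy5-1*, -3.91), and AT1G52810 stays near 0.

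The study's oxidation-reduction list holds 32 genes, 13 of which could be paired with a probe set of their own by the annotation used here, and under FR light MeJA lowered all 13 in *hy5-1* and raised them in *Ler* by 2-fold. This list was chosen on those arrays, so its FR direction is not independent evidence. In darkness AT5G43450 was the only 1 of the 13 with the opposite pattern (7.69%, against 1.78% of all probe sets). It was singled out with earlier dark results known. Besides AT1G80320, AT1G31670 was up-regulated in both genotypes in darkness, at 3.74 in *hy5-1* and 1.79 in *Ler* (4.95% of all probe sets). Besides AT1G52820, AT5G47000 was down-regulated in both, at -3.48 in *hy5-1* and -1.99 in *Ler* (5.62% of all probe sets).

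Among the other measured genes of that list, *hemf2* came near the pattern of AT5G43450 in darkness, with MeJA ratios of -4.44 in *hy5-1* and 0.83 in *Ler*. The cytochrome P450 gene *CYP78A9* had dark ratios of 2.16 in *hy5-1* and 0.33 in *Ler*. AT5G19880 was at 4.08 in *hy5-1* and 0.63 in *Ler*, AT1G60730 at 1.38 and -0.57, and AT5G51930 at 1.23 and 0.21. For *CYP78A9*, AT5G19880, AT1G60730 and AT5G51930 the *hy5-1* ratio in darkness was opposite in sign to that under FR light. That of *hemf2* was not, at -3.28 under FR light. AT5G51950 was at -2.45 in dark *hy5-1* and -0.43 in dark *Ler*, and AT3G44970 at 0.57 and 1.50. With MeJA in darkness, 6 of the 13 genes were lower in *hy5-1* than in *Ler* by 2-fold (8.06% of all probe sets) and 2 were higher (9%), the 3 dioxygenase-like genes being among the 6.

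Under FR light likeness among the 3 genes follows from the choice of a shared pattern, so the distances between them are a description. The root mean square difference of their centred values was 0.72 over the FR arrays and 2.23 over the dark arrays for AT1G52820 and AT1G80320. It was 0.995 and 2.13 for AT1G80320 and AT5G43450, and 1.39 and 1.27 for AT1G52820 and AT5G43450.

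Genes with the most similar values over the 8 arrays were sought among all named probe sets by the same measure. For AT1G52820 they were AT5G38750 (root mean square difference 0.49), AT4G13690 (0.54) and AT3G30230 (0.55), and for AT1G80320 the pseudogene AT1G36110 (0.50), AT2G07505 (0.51) and the pseudogene AT3G42580 (0.605). For AT5G43450 they were AT1G47940 (0.38), AT4G17140 (0.39) and AT2G33350 (0.44). None of these is on the dioxygenase list. AT1G47940 had MeJA ratios of -1.57 in *hy5-1* and 1.35 in *Ler* under FR light, and of -3.13 and 2.07 in darkness in the same order. The FR ratios of AT4G17140 were -0.87 in *hy5-1* and 0.55 in *Ler*, and its dark ratios -1.78 and 0.73. Those of AT2G33350 were -0.83 and 0.58 under FR light and -1.01 and 1.32 in darkness. These genes were picked for their likeness to AT5G43450 over the same arrays, and 1 of the 3 was opposite at 2-fold under FR light (2.07% of all probe sets). In darkness AT1G47940 and AT2G33350 were opposite at 2-fold (1.78% of all probe sets). All genes picked for likeness to AT1G52820 or AT1G80320 were opposite at 2-fold under FR light, such as AT5G38750 at -1.53 in *hy5-1* and 3.32 in *Ler*. In darkness the ratios of each of these had the same sign in both genotypes. Such likeness follows from how the genes were picked.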

How the data were processed

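Transcript levels of whole seedlings were measured on 8 ATH1 arrays, 1 per condition. The authors deposited logarithms, which were taken as log2 values. The submitters' processing notes name MAS5 for probe set summaries, with no version, and the paper names GeneSpring GX for normalization. No source used here states the array scaling, a signal floor or the log base. Because values were centred within each light, dim and bright signals could not be told apart. Of 22810 probe sets, 64 controls were left out. Through the array annotation and RefSeq identifiers (TAIR10.1), 13436 had 1 gene. The lowest value was tied on several arrays in 316 probe sets in darkness and 184 under FR light, none of the 3 genes among them.

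Ratios were differences of values within a light. limma 3.58.1 in R 4.3.3 was fitted to the 4 dark arrays (genotype and MeJA additive, without a variance trend, Benjamini-Hochberg over all probe sets, threshold 0.05) and, added later, to all 8 arrays for the other dioxygenase genes. The code of both fits was run on simulated data. Noise sizes came in part from these same arrays, so this was no independent check of the calls. The genes, lists and tests were chosen with earlier results of these data known. Named genes are the 3 genes, measured genes of the study's list, neighbours of the same family and the 3 most similar genes. Family genes with the 5 highest MeJA ratios are also named, but only some of those with the 5 lowest. Family genes shown for comparison, and AT3G46500, AT1G17010, AT3G46480, AT3G13610, *2A6*, *AOP1* and *AOP3*, were named after their values were seen. Settings tried were quantile normalization, median scaling, natural logarithms, other fold thresholds, a variance trend and tied probe sets left out. A promoter motif search had been planned but was not run. Genome coordinates served only to order neighbouring genes, and promoter or protein sequences were not used here.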

Additional observations from a re-analysis of the deposited data

Results flagged for a closer look

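Responses that passed 2-fold in opposite directions are given here. None of these differences was tested, since each rests on 4 single arrays. Between the genotypes, the MeJA response of *hy5-1* minus that of *Ler* was -6.29 for AT1G52820, -5.97 for AT1G80320 and -2.34 for AT5G43450 under FR light, where the genes were chosen for it. AT5G43450 also had opposite responses in darkness, with a difference of -3.92.

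Between the lights, the MeJA response under FR light minus that in darkness was 5.79 for AT1G52820 in *Ler*, with ratios of 4.59 under FR light and -1.20 in darkness. It was -4.78 for AT1G80320 in *hy5-1*, with ratios of -2.83 under FR light and 1.94 in darkness. The FR ratio of AT1G52820 in *Ler* contains the untreated FR *Ler* array, the lowest value of that gene.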

How the results depend on the processing

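All 24 ratios of the 3 genes kept direction and side of the 2-fold limits after quantile normalization within each light (largest shift 0.36). They did so after median scaling as well (largest shift 0.07). Read as natural logarithms, the MeJA ratio of AT1G52820 in FR *Ler* was 6.62, against 4.59. That reading and a fold threshold of 1.5 could not change a direction or undo a call, only add calls. Neither setting added a call among the 24 ratios. At a threshold of 3, 7 ratios were no longer called, namely those of AT1G52820 for MeJA in dark *Ler* (-1.20) and for genotype in darkness with MeJA (-1.002), of AT1G80320 for genotype in untreated dark seedlings (-1.35), and of AT5G43450 for MeJA in FR *hy5-1* (-1.12), FR *Ler* (1.21) and dark *Ler* (1.55) and for genotype in darkness with MeJA (-1.17). No gene of the 3 was then opposite in darkness (0, against 1). Probe sets up in *Ler* and down in *hy5-1* numbered 471 under FR light, and 861 at a threshold of 1.5, 222 at 3 and 731 as natural logarithms. In darkness there were 405, and 805, 163 and 673 in the same order.

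With a variance trend, which here follows the mean of centred values and not a level, the dark limma fit called 1063 probe sets for MeJA and 35 for genotype, against 0 and 0. Over the 4 settings of that fit the adjusted p of AT1G80320 for MeJA ran from 0.0668 to 0.264 and that of AT1G52820 from 0.123 to 0.292. Leaving out an array leaves no residual degree of freedom there, so this was not run. Leaving out 1 of the 4 pairs, the added limma fit called 0 to 2 of the 50 other family genes, against 12. Each such fit has fewer degrees of freedom, and the reason for the lower counts was not tested. The missing transcript level limits what a ratio of single arrays can show.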
